A study of Mus musculus with 130 samples.

Results

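RNA from a mouse embryonic stem cell line labelled as lacking the histone H3 lysine 9 methyltransferases G9a and GLP was set directly against RNA from a line lacking all 3 active DNA methyltransferases. The first library, labelled G9a/GLP DKO, is from TT2-derived cells of the strain C57BL/6xCBA with the genotype G9a-/-;GLP-/- and from 1 clone. The library Dnmt1/3a/3b TKO is from J1-derived cells of the strain 129S4/SvJae that lack Dnmt1, Dnmt3a and Dnmt3b. Because the lines differ in strain, levels in wild-type TT2 cells (WT TT2, C57BL/6xCBA) and wild-type J1 cells (WT J1, 129S4/SvJae) are given beside the values of the 2 mutants. Another pair of mutants of the same lines, catalytically mutant G9a (G9a CM, TT2-derived, with G9a deleted and a mutant G9a transgene) and Dnmt3a/3b DKO (J1-derived), shares no library with the comparison and was read the same way. The other TT2-derived libraries came from wild-type TT2 cells treated with UNC0638, a G9a and GLP inhibitor, and taken on days 2, 4 and 14, and from their DMSO control. The dose is 250 nM in the titles but 250 uM in the protocol, and these libraries are used only where named. Cells grew in serum with leukemia inhibitory factor on gelatin-coated plates, and total RNA went into Smart-seq2 libraries. Each group had 1 library. Genes with at least 1 CPM (counts scaled to a common effective library size) in either mutant library were taken, which gave 14052 of the 52550 genes in the tables, with 334 genes of chromosome Y left out, 9 of them at 1 CPM or more. Around that limit the lowest gene taken had 1.02 CPM in its higher library and the highest gene left out had 0.986 CPM.

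G9a and GLP form a heterodimer, encoded by Ehmt2 and Ehmt1, that adds mono- and dimethyl marks to lysine 9 of histone H3 in euchromatin. Dnmt1 copies DNA methylation after replication, and Dnmt3a and Dnmt3b lay it down anew at CpG sites. Both marks silence overlapping sets of germline, early embryonic and repeat-derived genes in embryonic stem cells, and G9a also takes part in recruiting DNA methylation.

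The libraries held 11436808 counts in the DKO-labelled cells, 17595050 in the TKO cells, 25609600 in WT TT2 and 16405518 in WT J1. With 1 library a group no test between conditions is possible, so a gene was called higher or lower by size: a difference of at least 1 in log2(CPM + 1), and an exact 95% interval of the count ratio that excludes 1. Those intervals cover counting error only, and nothing in the labels separates genotype from clone, culture, strain or library. All 6 embryonic stem cell markers (Pou5f1, Nanog, Sox2, Zfp42, Esrrb and Dppa5a) were above 10 CPM in these 4 libraries. Pou5f1 was the lowest of them in each, with 10.3 CPM in WT J1 and 12.5 CPM in WT TT2, against 455 CPM in the DMSO control of TT2 cells. The 13 fibroblast markers summed to 16.7 CPM in the DKO-labelled library, 13.9 CPM in the TKO library, 12.7 CPM in WT TT2 and 8.86 CPM in WT J1, of which Fbln1 made up more than any other marker in each. The trophoblast factors Cdx2, Gata3, Elf5 and Hand1 summed to 8.58, 6.24, 1.30 and 0.0671 CPM in the same order, with Cdx2 at 0 counts throughout. Gata4, Gata6, Sox17 and Sox7, factors of the primitive endoderm, summed to 1.89, 5.64, 1.57 and 8.93 CPM, and Pax6, Nes, Sox1 and Tubb3, neural genes, to 51.9, 46.3, 34.8 and 16.4 CPM. In bulk RNA, fewer cells of a type and less RNA per cell cannot be told apart.

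Among the 5 genes that the lines are labelled as lacking, the 3 methyltransferases of DNA separated the libraries most. Dnmt3b stood at 225 CPM in the DKO-labelled library, 2.68 CPM in the TKO library, 102 CPM in WT TT2 and 26.9 CPM in WT J1, and was 83.9-fold higher in the DKO-labelled library (interval 63.3 to 114). Dnmt3a had 98.1, 4.76, 53.9 and 17.4 CPM in the same order and was 20.6-fold higher (16.6 to 25.9). Dnmt1, with 56.3, 6.35, 50.7 and 46.6 CPM, was 8.87-fold higher (7.28 to 10.9). The TKO library thus held the lowest level of each, although none was at 0. Ehmt1, which encodes GLP, had 7.95 CPM in the DKO-labelled library, 30.1 CPM in the TKO library, 38.3 CPM in WT TT2 and 25.7 CPM in WT J1, and was 3.79-fold lower in the DKO-labelled library (3.06 to 4.73). In the deposited TPM values the Ehmt1 difference was -0.57 on the log2 scale and was not called. Ehmt2, which encodes G9a, had 17.9 CPM in the DKO-labelled library and 18.1 CPM in the TKO library, a ratio not distinguishable from 1 by counting (0.848 to 1.20 as TKO over DKO), with 14.6 CPM in WT TT2 and 6.98 CPM in WT J1. These counts cover the whole gene, and which part was deleted is not given, so the Ehmt2 level does not check the label. Directions below are those of the library labelled G9a/GLP DKO. Of 24 cofactors and readers of the 2 marks, 2 were called, both higher, a share of 8.33% beside 12% of all genes. Tdg, the glycosylase that removes oxidised methylcytosine, had 16.8, 2.03, 18.9 and 4.09 CPM. The DKO-labelled library was close to WT TT2, while the TKO library was below WT J1. Dnmt3l, the cofactor of Dnmt3a, was not called, with 180 and 258 CPM in the 2 mutants and 73.8 and 33.7 CPM in WT TT2 and WT J1.

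Over all genes the mutant libraries differed from each other less than their wild types did. The size rule called 1688 of 14052 genes (12%), 922 higher (6.56%) and 766 lower (5.45%) in the DKO-labelled library, while 3217 of 13731 genes (23.4%) were called between WT TT2 and WT J1, 1505 of them higher (11%) and 1712 lower (12.5%) in TT2. Over the 8093 genes at 10 CPM or more, the median absolute difference was 0.34 between the mutants and 0.52 between the wild types on the log2 scale. The median signed difference was 0.01. Scaling by total counts moved that median to 0.10 and the deposited TPM to 0.19. In TPM, 66.4% of the calls were higher, against 54.6% with the scaling used here. Against its own wild type, the DKO-labelled library had 1365 genes higher (9.74%) and 995 lower (7.1%), 16.8% of 14021 genes, and the TKO library 1531 higher (11%) and 1482 lower (10.6%), 21.7% of 13916 genes. Each direct difference is the sum of 3 terms, DKO-labelled minus WT TT2, plus WT TT2 minus WT J1, minus TKO minus WT J1. Of the 1688 called genes, 531 (31.5%) were called in the same direction between the wild types, which use other libraries, and 80 (4.74%) in the opposite direction. For 610 genes among the called ones (4.34% of those tested, 305 each way, 2.17%), the mutant difference also exceeded the wild-type one in the direction of the call by at least 1 in log2, with a counting interval of the ratio of ratios that excluded 1.

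**Figure D1:**
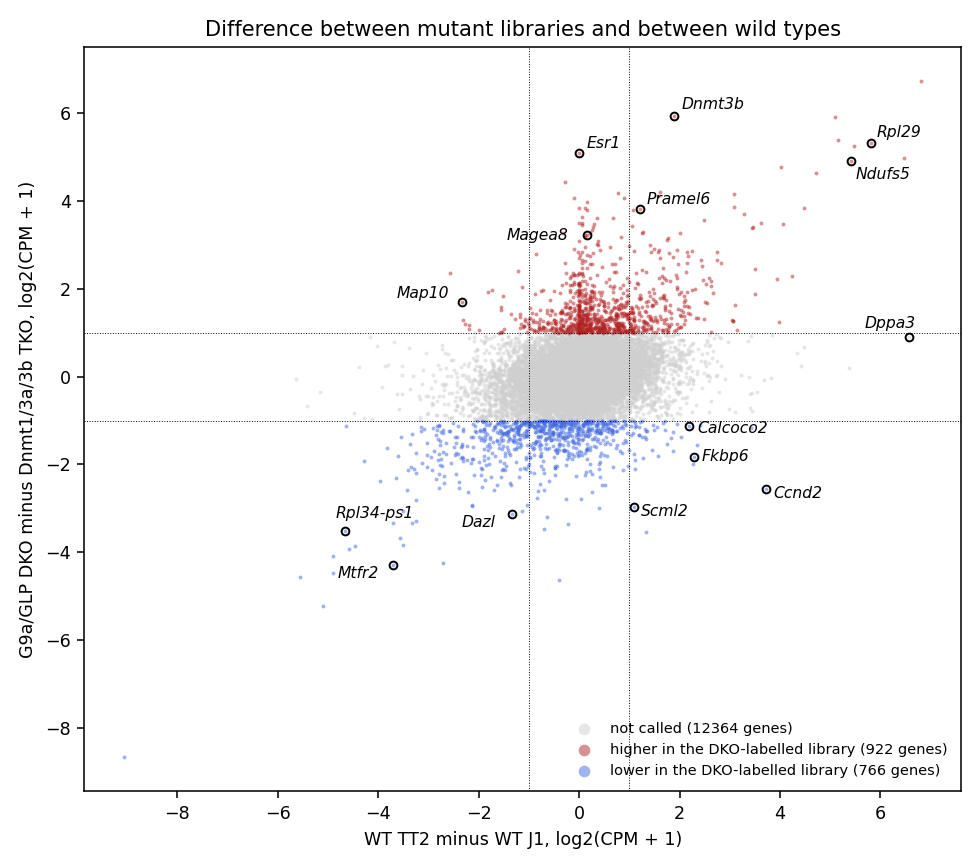
Each point is 1 of 14052 genes, with the difference of WT TT2 minus WT J1 on the horizontal axis and of the library labelled G9a/GLP DKO minus Dnmt1/3a/3b TKO on the vertical axis, both in log2(CPM + 1), and dotted lines at 1 and -1. Genes such as Rpl29 and Mtfr2 lie far out along the diagonal, Esr1 and Magea8 lie high with wild-type differences near 0, and Calcoco2, Fkbp6 and Map10 lie in the corners where the 2 differences have opposite signs.

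The other pair of mutant lines gave a reading in libraries that none of these calls used. Between G9a CM and Dnmt3a/3b DKO, 2203 of 13691 genes were called (16.1%), 965 higher (7.05%) and 1238 lower (9.04%) in G9a CM. Of 707 genes called higher in the DKO-labelled library and measured in both pairs, 295 (41.7%) were also higher in G9a CM and 13 (1.84%) were lower. Of 729 genes called lower, 318 (43.6%) were also lower and 7 (0.960%) were higher. Set against the 910 genes higher and 1212 lower in G9a CM that were measured in both, those shared genes were 32.4% and 26.2%. Genes called the same way between the wild types recurred more often, 147 of 227 higher (64.8%) and 176 of 283 lower (62.2%). Among the genes that differed beyond the wild types, 68 of 240 higher (28.3%) and 112 of 292 lower (38.4%) recurred, with 9 and 4 called the opposite way. Both shares lay above the 7.05% and 9.04% of all genes, while the wild-type strain difference runs through both pairs.

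Genes of the earliest embryo were mostly on the higher side. Of 30 listed genes of the 2-cell embryo, 23 reached 1 CPM in a mutant library. Of these, 18 were higher and 1 was lower in the DKO-labelled library, a share of 82.6% beside 12% of all genes. The median difference of the 23 was 1.94 in log2(CPM + 1), against 0.01 for all genes, and 2.52 with counts under 3 raised to 3. With no minimum it was 1.54 over the 30. Without the minimum, the counting interval lay above 1 for 26 of the 30 and below 1 for 1. Zscan4d, of a family of zinc finger genes that act in telomere maintenance, had 42.8 CPM in the DKO-labelled library, 9.53 CPM in the TKO library, 0.629 CPM in WT TT2 and 0.0671 CPM in WT J1, and was 4.49-fold higher in the DKO-labelled library (3.78 to 5.36). Usp17lb, a deubiquitinase gene, had 26.0, 0.876, 0.0787 and 0 CPM and was 29.6-fold higher (18.0 to 52.5). Usp17lc had 8.03 CPM in the DKO-labelled library and 0 counts in the TKO library, at least 48.9-fold higher when the TKO count is set to a floor of 3. The TKO library was between the DKO-labelled library and the wild types for Zscan4d and Usp17lb. The 6 Zscan4 genes together had 123, 28.5, 1.93 and 0.671 CPM, a sum less open to the sharing of reads among near-identical copies than any member. Neither family separated G9a CM from Dnmt3a/3b DKO in that way: Zscan4d had 2.77 and 3.59 CPM there and Usp17lb 1.18 and 0.538 CPM. Calcoco2, an autophagy receptor gene that is also high in 2-cell embryos, was the listed gene called lower, with 413 CPM in the DKO-labelled library, 904 CPM in the TKO library, 76.5 CPM in WT TT2 and 15.9 CPM in WT J1, and its call was lost in TPM.

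Pramel6 and Pramel7, PRAME-family genes of preimplantation embryos, and Elobl, an elongin B-like gene, followed. Pramel6 had 271 CPM in the DKO-labelled library, 18.2 CPM in the TKO library, 1.46 CPM in WT TT2 and 0.0671 CPM in WT J1, 14.9-fold higher (13.3 to 16.8). Pramel7, whose product drives breakdown of Uhrf1 in mouse embryonic stem cells, had 82.8, 15.0, 1.53 and 0 CPM, 5.52-fold higher (4.83 to 6.33). Elobl had 97.7, 13.3, 1.02 and 2.68 CPM, 7.37-fold higher (6.42 to 8.49). All 3 stood above the wild types in both mutants, and further above them in the DKO-labelled library. The same direction held in the other pair, where Pramel6 had 108 CPM in G9a CM and 3.17 CPM in Dnmt3a/3b DKO. Uhrf1 itself was not called, with 130 CPM in the DKO-labelled library, 91.8 CPM in the TKO library, 59.9 CPM in WT TT2 and 95.1 CPM in WT J1. Of 21 listed Pramel and oocyte Nlrp genes, 11 were measured, 6 were higher and none was lower, a share of 54.5% beside 12% of all genes. Their median difference was 1.45, but 0.38 over the 15 genes with any count when no minimum was set. Nlrp5, a maternal-effect gene of the oocyte at 3.54, 0.383, 0 and 0 CPM, lost its call in TPM.

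The X-linked Magea genes, cancer-testis antigens whose promoters carry DNA methylation in most somatic cells, were higher in the line that keeps its DNA methyltransferase genes. Magea8 had 193 CPM in the DKO-labelled library, 19.9 CPM in the TKO library, 0.118 CPM in WT TT2 and 0 CPM in WT J1, 9.70-fold higher (8.69 to 10.9). Magea5 had 104, 15.9, 0.0787 and 0 CPM, 6.54-fold higher (5.76 to 7.45). Magea3 had 22.6, 0.657, 0 and 0 CPM, 34.4-fold higher (19.4 to 67.3). The 10 Magea genes summed to 429 CPM in the DKO-labelled library, 48.7 CPM in the TKO library, 0.393 CPM in WT TT2 and 0.0671 CPM in WT J1, and the sum was 8.80-fold higher in the DKO-labelled library (8.20 to 9.46). Reads are shared among these near-identical genes, so single members are uncertain. Of 24 Magea and Mageb genes, 11 were measured, 6 were higher and none was lower, a share of 54.5% beside 12% of all genes. Without the minimum, the counting interval lay above 1 for 9 of the 24 and below 1 for 2. In the other pair Magea8 had 13.0 CPM in G9a CM and 13.3 CPM in Dnmt3a/3b DKO, so this gene did not separate them. Magea3 had 2.06 and 0.0598 CPM there. Of 9 listed genes measured in that pair, 2 were higher and 1 was lower in G9a CM.

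The promoters of 3 genes of these groups that have 1 start in the table are shown with each CpG, the site of DNA methylation, in capitals. They are RefSeq promoters of GRCm38.p6, from 250 bases before to 50 after the start, 5′ to 3′ on the strand of the gene. Zscan4d at chr7:11166099-11166398 (minus strand) holds 3 CpGs, Pramel6 at chr2:87506315-87506614 (plus strand) 3, and Magea8 at chrX:154995801-154996100 (minus strand) 10.
Zscan4d: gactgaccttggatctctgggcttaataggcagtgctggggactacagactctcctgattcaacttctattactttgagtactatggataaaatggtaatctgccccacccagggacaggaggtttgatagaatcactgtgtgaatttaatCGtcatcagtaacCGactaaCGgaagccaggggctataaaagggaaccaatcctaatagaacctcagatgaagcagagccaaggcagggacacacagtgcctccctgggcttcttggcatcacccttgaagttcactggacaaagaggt
Pramel6: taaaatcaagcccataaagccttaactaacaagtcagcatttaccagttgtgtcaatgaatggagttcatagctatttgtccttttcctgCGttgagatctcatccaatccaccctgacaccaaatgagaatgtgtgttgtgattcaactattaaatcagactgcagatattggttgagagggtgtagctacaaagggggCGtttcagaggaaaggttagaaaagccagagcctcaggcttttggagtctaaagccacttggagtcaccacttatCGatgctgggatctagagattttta
Magea8: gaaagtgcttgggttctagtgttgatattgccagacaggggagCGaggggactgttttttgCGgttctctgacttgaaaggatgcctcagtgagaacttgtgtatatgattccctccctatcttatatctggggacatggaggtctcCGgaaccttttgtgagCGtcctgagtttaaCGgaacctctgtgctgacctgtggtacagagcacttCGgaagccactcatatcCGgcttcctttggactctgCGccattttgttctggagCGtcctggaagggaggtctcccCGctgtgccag

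Esr1, the gene of estrogen receptor alpha, gave the largest difference beyond the wild types among the protein-coding genes called higher that had a standard symbol and 10 CPM or more. It had 40.8 CPM in the DKO-labelled library, 0.219 CPM in the TKO library and 0 counts in WT TT2 and in WT J1, 186-fold higher (72.2 to 686). The 6 other TT2-derived libraries, those of the inhibitor experiment included, held at most 0.118 CPM, so the level was seen in this 1 clone. Ddx60, an antiviral helicase gene, had 27.5, 1.04, 1.81 and 0.336 CPM, 26.4-fold higher (16.6 to 44.4). Baiap2l1, which encodes an actin-bundling protein, had 41.8, 1.31, 10.6 and 2.82 CPM, 31.8-fold higher (21.1 to 50.1), and was high in G9a CM too, at 39.0 CPM against 1.97 CPM in Dnmt3a/3b DKO. For 3 further genes the wild types ran the other way. Ube2dnl1, a ubiquitin-conjugating enzyme-like gene, had 13.9, 1.81, 0.433 and 2.35 CPM. Naa11, a paralogue of the N-terminal acetyltransferase Naa10, had 13.7, 2.74, 1.34 and 6.78 CPM. Map10, which encodes a microtubule-associated protein, had 10.4, 2.52, 2.12 and 14.8 CPM. Each was higher in the DKO-labelled library than in the TKO library, while WT TT2 was below WT J1.

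On the lower side stood genes of the germ line. Dazl, an RNA-binding translation regulator of germ cells, had 18.1 CPM in the DKO-labelled library, 167 CPM in the TKO library, 9.52 CPM in WT TT2 and 25.7 CPM in WT J1, 9.22-fold lower in the DKO-labelled library (8.07 to 10.6). Scml2, a Polycomb-family gene of spermatogonia on the X chromosome, had 4.72, 44.2, 4.40 and 1.54 CPM, 9.36-fold lower (7.19 to 12.4). Fkbp6, a co-chaperone of the piRNA pathway, had 27.6, 101, 13.3 and 1.95 CPM, 3.65-fold lower (3.25 to 4.10). For these genes the DKO-labelled library was close to or moderately above WT TT2, while the TKO library stood well above WT J1. The other pair ran in the same direction for these named genes. Dazl had 11.7 CPM in G9a CM and 76.5 CPM in Dnmt3a/3b DKO, Scml2 3.53 and 14.0 CPM, and Fkbp6 27.7 and 78.9 CPM. Of 42 listed germline genes, 34 were measured, 13 were lower and 2 were higher, a share of 44.1% beside 12% of all genes. Their median difference was -0.70 against 0.01 for all genes. In the other pair the list was more mixed. Of 36 genes measured there, 8 were lower and 4 were higher in G9a CM, with a median of -0.27, while 9.04% and 7.05% of all genes were called lower and higher. Most of the list was measured in wild-type cells too: 33 of the 42 genes reached 1 CPM in WT TT2. Without the minimum, the counting interval lay below 1 for 21 of the 42 and above 1 for 4.

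Other members of the germline list showed other orders of the 4 libraries. Slc25a31, the ADP/ATP carrier of the testis, had 4.09, 20.8, 5.58 and 9.80 CPM, 5.07-fold lower (3.79 to 6.91), with the TKO library above both wild types. Tex11, an X-linked gene of meiotic crossing over, had 2.28, 13.8, 27.4 and 24.9 CPM, 6.05-fold lower (4.11 to 9.21), with both mutants under their wild types. Stag3, the meiotic cohesin subunit, had 1.42, 8.0, 4.17 and 35.0 CPM, and the lower call followed the direction of the wild types. Rpl10l, the testis copy of a ribosomal protein gene, was 1 of the 2 called higher, with 211 CPM in the DKO-labelled library, 69.3 CPM in the TKO library, 21.4 CPM in WT TT2 and 64.8 CPM in WT J1. Sycp3, of the synaptonemal complex, had 15.4, 26.9, 34.4 and 195 CPM and was not called, although the wild types differed more than the mutants.

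In the Rhox cluster of X-linked reproductive homeobox genes, 14 of 42 listed genes were measured, and calls went both ways, 3 higher and 2 lower. The share called was 35.7%, beside 12% of all genes. The median difference was 0.88, or 0.21 with no minimum. Without the minimum, the counting interval lay above 1 for 12 of the 42 and below 1 for 2. Rhox10, a gene of spermatogonia, had 5.67 CPM in the DKO-labelled library, 26.4 CPM in the TKO library, 6.13 CPM in WT TT2 and 2.62 CPM in WT J1, 4.66-fold lower (3.63 to 6.05). Rhox13 had 4.25, 22.6, 4.52 and 9.87 CPM, 5.31-fold lower (3.99 to 7.19). The higher calls were small in level, Rhox2h with 6.53, 1.26, 0.0787 and 0 CPM and Rhox2g with 5.12, 1.26, 0.236 and 0 CPM, and Rhox2 copies share reads. The deposited TPM called 8 Rhox genes higher and 2 lower.

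Outside the lists, 7 genes among the largest lower calls had roles elsewhere. St8sia1, the GD3 ganglioside synthase, had 1.5, 24.5, 3.07 and 3.76 CPM, 16.4-fold lower (10.4 to 27.4). Slc9a3r2, a PDZ scaffold gene, had 5.67, 52.0, 5.47 and 3.89 CPM, 9.18-fold lower (7.22 to 11.8). Necab1, a neuronal calcium-binding protein gene, had 0.472, 10.2, 0.275 and 1.61 CPM, 21.7-fold lower (9.78 to 59.9). In these the TKO library alone stood high among the 4. Slc9a3r2 was, however, at 50.2 CPM in the DMSO control from wild-type TT2 cells and at 31.7 to 51.1 CPM in the UNC0638 libraries. Tekt1, a tektin of cilia and flagella, had 0.787, 13.9, 2.40 and 6.44 CPM, 17.6-fold lower (9.42 to 37.2). Dpys, dihydropyrimidinase of pyrimidine breakdown, had 7.16, 62.4, 6.53 and 32.2 CPM, and Slc24a5, a cation exchanger of pigment cells, had 44.3, 344, 45.9 and 204 CPM. Per3, a circadian clock gene, had 1.1, 13.8, 6.37 and 68.6 CPM. For Necab1 and these 4, WT TT2 was also called lower than WT J1. Further genes were lower in the DKO-labelled library although WT TT2 exceeded WT J1. Mns1, needed for sperm flagella, had 27.5, 81.2, 47.5 and 13.4 CPM and lost its call in TPM. Pifo, of the primary cilium, had 1.89, 10.5, 6.69 and 0.604 CPM, Gpx6, a glutathione peroxidase gene, 6.30, 20.6, 18.4 and 2.82 CPM, and Cela2a, an elastase gene, 8.18, 22.8, 9.44 and 1.54 CPM.

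The promoters of 3 genes of the lower side are shown in the same way. These and the promoters of Zscan4d, Pramel6 and Magea8 were picked after values were seen and do not stand for their classes. Median CpG numbers were 11 for all higher genes (interquartile range 4 to 23) and 15 for all lower genes (6 to 24). Dazl at chr17:50293571-50293870 (minus strand) holds 28 CpGs, Mns1 at chr9:72438279-72438578 (plus strand) 19, and Scml2 at chrX:161162500-161162799 (plus strand) 13. The listed starts of Mns1 and Scml2 lie inside the gene spans, chr9:72437821-72458581 and chrX:161082525-161258218. For Scml2 the window is thus an internal one, far from the 5′ end of the span.
Dazl: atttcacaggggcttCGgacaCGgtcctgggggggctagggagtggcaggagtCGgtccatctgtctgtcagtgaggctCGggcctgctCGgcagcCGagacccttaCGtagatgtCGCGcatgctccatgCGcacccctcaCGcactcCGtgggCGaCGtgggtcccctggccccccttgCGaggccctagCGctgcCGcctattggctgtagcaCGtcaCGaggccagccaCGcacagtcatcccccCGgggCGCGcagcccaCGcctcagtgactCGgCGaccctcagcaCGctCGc
Mns1: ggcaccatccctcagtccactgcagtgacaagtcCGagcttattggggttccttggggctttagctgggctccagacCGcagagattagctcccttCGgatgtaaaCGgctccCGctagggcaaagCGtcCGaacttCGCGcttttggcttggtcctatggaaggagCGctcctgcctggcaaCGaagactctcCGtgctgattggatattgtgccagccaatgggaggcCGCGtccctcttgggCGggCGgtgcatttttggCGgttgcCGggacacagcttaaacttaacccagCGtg
Scml2: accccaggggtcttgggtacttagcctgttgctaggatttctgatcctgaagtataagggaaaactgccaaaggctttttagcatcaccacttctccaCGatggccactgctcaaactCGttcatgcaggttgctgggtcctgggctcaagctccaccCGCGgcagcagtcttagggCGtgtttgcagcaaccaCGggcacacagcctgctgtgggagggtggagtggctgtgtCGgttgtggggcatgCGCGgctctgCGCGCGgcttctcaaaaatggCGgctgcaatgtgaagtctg

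**Figure D2:**
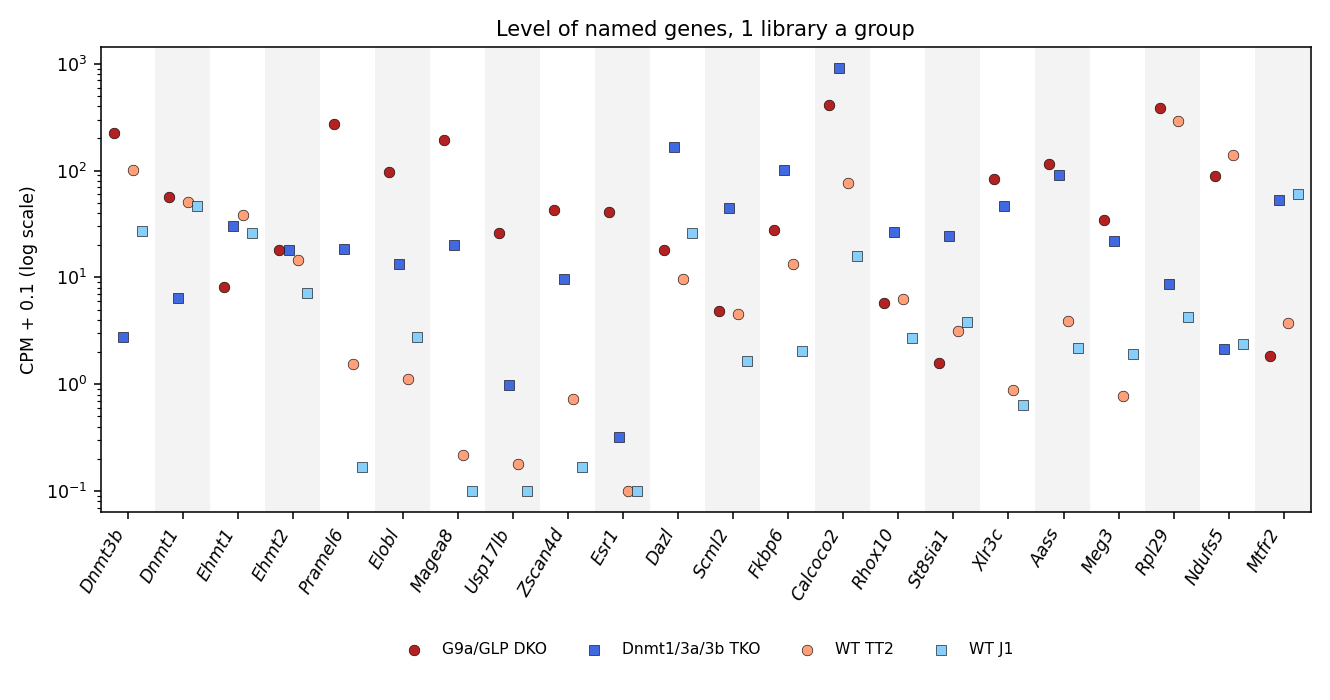
The vertical axis gives CPM plus 0.1 on a log scale for 22 genes, with 1 point for each library: G9a/GLP DKO, Dnmt1/3a/3b TKO, WT TT2 and WT J1. Dazl, Scml2 and Fkbp6 peak in the TKO library, Pramel6, Magea8, Usp17lb and Esr1 in the DKO-labelled library, Xlr3c, Aass and Meg3 are high in both mutants, and Rpl29, Ndufs5 and Mtfr2 pair each mutant with its wild type.

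Over the promoters of the measured genes, called genes of both directions had fewer CpGs than the rest, and the higher genes had the fewest. A promoter was found for 10423 genes, and the first listed start was used where a gene had several. The median number of CpGs in 300 bases was 11 for the 582 higher genes (interquartile range 4 to 23), 15 for the 503 lower genes (6 to 24) and 21 for the 9338 genes not called (13 to 29). GC content had medians of 55.5%, 57.3% and 61.0%. Promoters with 5 or fewer CpGs made up 33.5%, 21.1% and 9.02% of the 3 classes. Low-expressed genes in general had fewer CpGs, and the order was kept within levels: among genes at 1 to 10 CPM in the higher library the medians were 7, 11 and 18, and among genes at 10 CPM or more they were 17, 18 and 22. Letters of 3 motifs were sought on both strands, and none of the 3 contains another. The E-box CACGTG was in 8.93% of higher, 12.1% of lower and 10.2% of uncalled promoters, beside 7.24% of all 27025 promoters in the table. GCGGGAA, an E2F-type motif, was in 4.98%, 7.55% and 8.89%, beside 4.66% of all. TGATGNAA, the letters of the amino acid response element, was in 3.78%, 2.19% and 2.18%, beside 4.06% of all. Genes and their promoters are not independent, and these shares describe the window only.

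**Figure D3:**
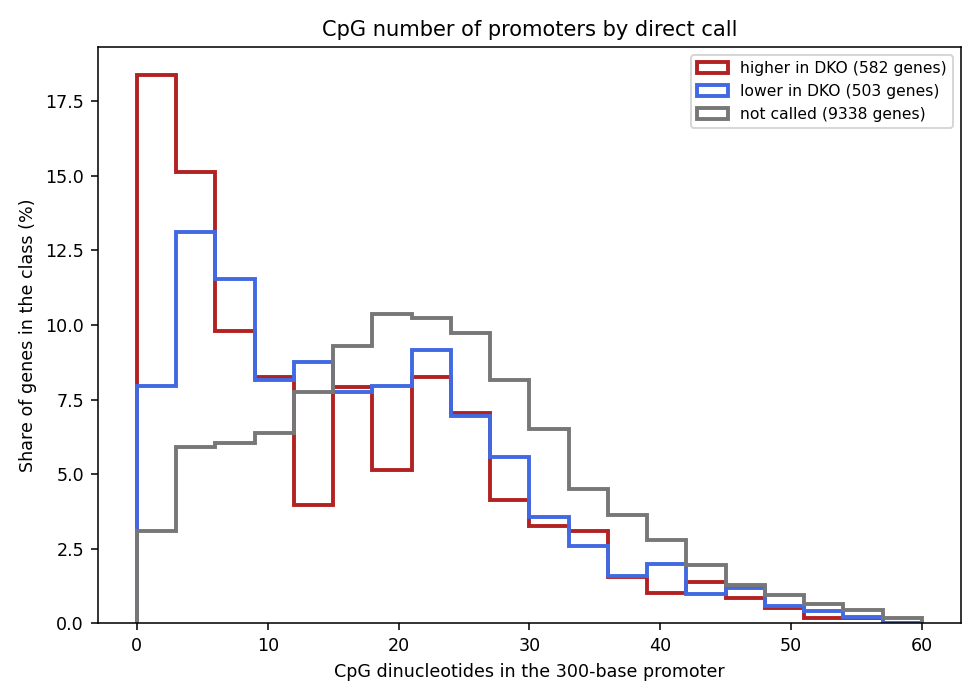
The horizontal axis is the number of CpG dinucleotides in the 300-base promoter and the vertical axis the percent of genes of a class, for 582 genes higher in the DKO-labelled library, 503 lower and 9338 not called. The higher genes pile up under 6 CpGs, the lower genes are spread between, and the uncalled genes centre near their median of 21.

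Several genes that were high in both mutants did not separate them, so the direct comparison leaves them out. The X-linked Xlr3 and Xlr4 genes, lymphocyte-regulated genes expressed in germ cells and brain, are an example. Xlr3c had 84.0 CPM in the DKO-labelled library, 46.3 CPM in the TKO library, 0.787 CPM in WT TT2 and 0.537 CPM in WT J1, and Xlr3a had 102, 88.7, 57.4 and 0.403 CPM. The 10 measured Xlr genes had a median difference of -0.02 between the mutants, which was positive with total counts, in TPM, with no minimum and with a minimum of 10 CPM, while the medians were 2.99 for the DKO-labelled library minus WT TT2 and 4.67 for the TKO library minus WT J1. The 3 higher calls, a share of 30% beside 12% of all genes, were the Xlr5 genes. Of these, Xlr5c had 29.9, 5.80, 0.0787 and 0 CPM, 5.15-fold higher (4.14 to 6.45). The other pair did separate: 6 of 10 measured Xlr genes were lower and 0 higher in G9a CM than in Dnmt3a/3b DKO. Their median difference there was -1.34, and 9.04% of all genes were called lower. Aass, the first enzyme of lysine breakdown, had 114, 90.4, 3.81 and 2.08 CPM. Dppa3, a maternal factor that protects DNA methylation in the zygote, had 376 and 200 CPM in the 2 mutants and 549 CPM in WT TT2, against 4.77 CPM in WT J1. These genes, other than the Xlr5 ones, differed by less than the size rule requires, with ratios of 1.26 for Aass (1.18 to 1.36) and 1.88 for Dppa3 (1.80 to 1.97).

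Imprinted genes, which are read from 1 parental allele under the control of DNA methylation, were called in both directions. Among 26 measured paternally expressed genes, 3 were called higher and 4 lower, and their median of -0.27 turned to 0.10 in TPM. Of 19 maternally expressed genes none was higher and 1 was lower. The shares called were 26.9% of the paternally and 5.26% of the maternally expressed genes, beside 12% of all genes. Peg3, a zinc finger gene, had 208 CPM in the DKO-labelled library, 35.6 CPM in the TKO library, 46.8 CPM in WT TT2 and 7.72 CPM in WT J1, 5.84-fold higher (5.36 to 6.37). Its wild-type difference, 2.46 on the log2 scale, was as large as its mutant one, 2.51. Kcnq1ot1, a long noncoding RNA that silences its neighbours, had 210, 59.3, 35.5 and 29.4 CPM, 3.54-fold higher (3.29 to 3.80), and since the use of strand in counting is not stated, its reads and those of Kcnq1 cannot be told apart. Inpp5f, a phosphatase gene with an imprinted isoform, had 11.1, 40.5, 20.6 and 39.6 CPM, 3.65-fold lower (3.04 to 4.40). Cobl, an actin nucleator gene, was the maternally expressed gene called, with 15.3, 45.2, 13.4 and 117 CPM and a larger difference between the wild types. Meg3 and Rian, noncoding RNAs of the Dlk1-Dio3 domain, were above the wild types in both mutants: Meg3 had 34.5, 22.0, 0.669 and 1.81 CPM and Rian 34.9, 41.9, 1.30 and 2.42 CPM. H19 likewise had 26.8, 39.9, 5.27 and 0.805 CPM, and none of the 3 was called.

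Genes of pluripotency were called at a share near the 12% of all genes, 14.3% for the naive list and 13.3% for the formative and primed list. Among 28 naive pluripotency genes the median was -0.31, and 1 was called higher and 3 lower. Zfp42, the naive marker also called Rex1, had 1077 CPM in the DKO-labelled library, 2424 CPM in the TKO library, 2025 CPM in WT TT2 and 2055 CPM in WT J1, 2.25-fold lower (2.21 to 2.30), and lost its call in TPM. Gbx2, a target of leukemia inhibitory factor signalling, had 4.09, 11.2, 4.99 and 15.2 CPM, and Tbx3, a factor of naive cells, 3.86, 10.5, 1.77 and 23.4 CPM, both along the direction of the wild types. Tbx3 lost its call in TPM. Pou5f1, which encodes Oct4, was the higher call, with 26.8, 12.6, 12.5 and 10.3 CPM, 2.12-fold (1.78 to 2.51), and shares sequence with pseudogenes. Its level was far higher in the inhibitor experiment, 455 CPM in the DMSO control and 294 to 406 CPM with UNC0638. Nanog had 423, 481, 260 and 392 CPM and Sox2 had 78.1, 114, 91.8 and 159 CPM, neither called. Of 15 formative and primed genes, Sox11, a neural progenitor factor, was higher at 9.36, 2.90, 22.2 and 13.0 CPM, and Fgf15, a secreted growth factor, was lower at 2.75, 9.20, 2.87 and 4.09 CPM. Sox11 lost its call in TPM.

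Among lineage genes, the primitive endoderm list had 4 of 16 measured genes lower and none higher, a share of 25% beside 12% of all genes. Each of the 4 had WT TT2 also called below WT J1. Without the minimum, the counting interval lay below 1 for 8 of the 19 listed genes and above 1 for 3. The 19 together summed to 688 CPM in the DKO-labelled library, 546 CPM in the TKO library, 482 CPM in WT TT2 and 1102 CPM in WT J1. Dab2, an endocytic adaptor, had 1.02, 10.2, 2.32 and 9.33 CPM, 9.96-fold lower (5.68 to 19.1). Srgn, a proteoglycan gene, had 4.01, 18.0, 0.944 and 37.1 CPM, 4.48-fold lower (3.32 to 6.14). Cubn, an endocytic receptor, had 2.75, 8.93, 0.275 and 3.89 CPM, and Lama1, a laminin chain, 14.2, 35.1, 12.9 and 27.7 CPM, both without a call in TPM. Unlike the sum of the whole list, the summed level of Gata4, Gata6, Sox17 and Sox7 was lower in the DKO-labelled library than in the TKO library. It was also lower in WT TT2 than WT J1, and its part in these differences was not tested. No neural gene of 13 was called. The share called among 13 trophoblast genes was 15.4%, beside 12% of all genes. Plet1, an early trophoblast and epithelial progenitor marker, was higher with 36.4, 5.37, 13.8 and 7.99 CPM, 6.79-fold (5.45 to 8.53). Plac1, a placental gene on the X chromosome, was lower with 6.06, 14.2, 0.708 and 0.0671 CPM, 2.35-fold (1.82 to 3.07). Col1a1, the collagen of fibroblasts, had 4.49, 0.657, 0.865 and 0.336 CPM and was not called in TPM.

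Lists of stress and growth control genes were called at shares above and below that of all genes. Against 12% of all genes, the share called was 16% in the list of the Atf4 and amino acid response, 17.6% in p53 targets, 37.5% in the interferon response and 4.17% in sterol genes. Of 25 measured genes of the Atf4 list, 4 were higher and none was lower, and the median was 0.44. Atf4, the transcription factor of that response, had 118 CPM in the DKO-labelled library, 27.1 CPM in the TKO library, 165 CPM in WT TT2 and 187 CPM in WT J1, 4.36-fold higher (3.93 to 4.83). Slc7a5, a leucine transporter, had 33.4, 7.56, 34.9 and 21.6 CPM, 4.43-fold higher (3.64 to 5.40). The TKO library was the lowest of the 4 for both. Across the list both mutants lay under their wild types, with medians of -0.98 for the DKO-labelled library minus WT TT2 and -1.05 for the TKO library minus WT J1. Nupr1, a stress-response nuclear protein gene, had 8.97, 6.30, 140 and 288 CPM, and Ddit3, which encodes Chop, 4.80, 5.04, 38.3 and 48.5 CPM and the mutants did not differ by the size rule in either. Of 17 p53 target genes, 3 were higher and none was lower: Phlda3, an Akt repressor, had 14.8, 3.18, 7.24 and 2.15 CPM, Pmaip1, which encodes Noxa, 16.3, 5.31, 27.7 and 43.5 CPM, and Cdkn1a, the p21 inhibitor, 69.5, 26.9, 60.6 and 30.5 CPM. Of 11 D-type cyclins and inhibitors, 1 was higher and 1 was lower, a share of 18.2%. The inhibitor gene Cdkn1b was higher with 3.86, 1.26, 8.42 and 7.18 CPM, and lost its call in TPM. Ccnd2, a D-type cyclin, had 0.866, 9.97, 37.8 and 1.95 CPM, 11.5-fold lower (6.28 to 23.5), with WT TT2 the highest of the 4. Of 16 interferon response genes, 5 were higher and 1 lower, while the 8 of them at 10 CPM or more gave 0 higher calls, 1 lower call and a median difference of -0.49, against 0.19 for the 16. Bst2, an antiviral membrane protein gene, had 6.85, 0.602, 28.1 and 0.537 CPM, and 3 of the 6 calls had the direction of the wild types. Of 24 sterol genes only Stard4, a sterol transporter, was called, lower with 15.7, 36.0, 58.0 and 24.8 CPM, and of 21 glycolysis genes none was.

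**Figure D4:**
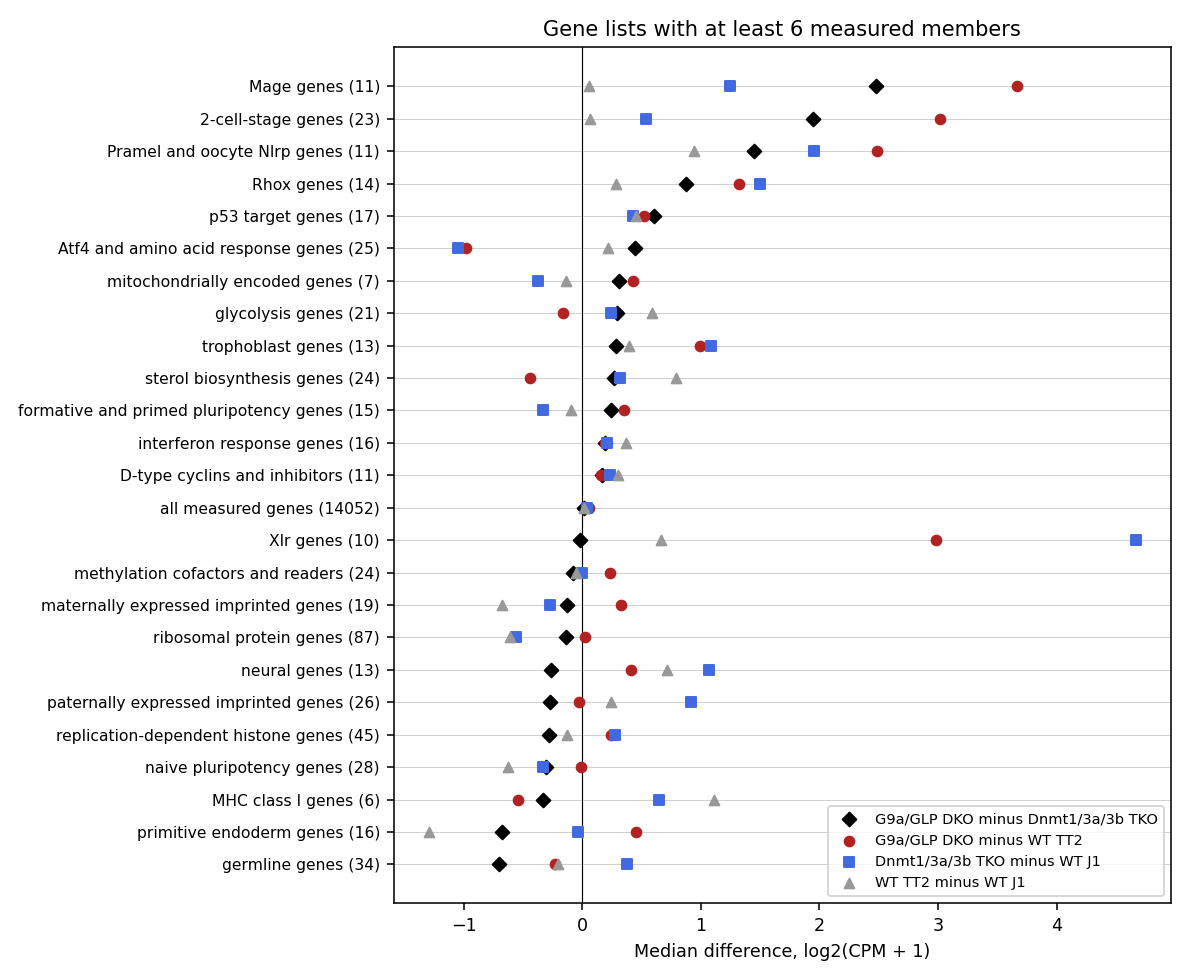
The horizontal axis gives the median difference in log2(CPM + 1) of each gene list with at least 6 measured members, whose number stands in brackets, for the library labelled G9a/GLP DKO minus Dnmt1/3a/3b TKO, each mutant minus its own wild type, and WT TT2 minus WT J1. In the comparison of mutants, Mage, 2-cell and Pramel genes lie farthest to the right. Germline genes lie farthest to the left at -0.70, close to primitive endoderm genes at -0.67. Xlr genes lie near 0 there with both mutants far above their wild types. Members reached 1 CPM in either mutant library. With no minimum the medians were 0.33 for Mage, 1.54 for 2-cell, 0.38 for Pramel and -0.48 for germline genes.

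Some of the largest direct differences were shared with the wild types and with the other mutant pair. Rpl29, of the large ribosomal subunit, had 382 CPM in the DKO-labelled library, 8.60 CPM in the TKO library, 290 CPM in WT TT2 and 4.16 CPM in WT J1, 44.5-fold higher (37.9 to 52.5). Ndufs5, a complex I subunit gene, had 89.9, 2.03, 139 and 2.28 CPM, and Mtfr2, a mitochondrial fission regulator, 1.73, 52.5, 3.66 and 59.9 CPM. Ubd, a ubiquitin-like modifier gene, had 14.2 CPM in the DKO-labelled library, 1 count or 0.0548 CPM in the TKO library, 21.3 CPM in WT TT2 and 0 in WT J1, a ratio of 259 (45.8 to 10273). Over all genes, 293 of the 922 higher genes (31.8%) had every one of the 6 other TT2-derived libraries (WT TT2, G9a CM, the inhibitor libraries of 3 days and their control) above both other J1-derived ones, and 29 had every one below. Of the 766 lower genes 338 (44.1%) had every TT2-derived library below and 7 every one above. Across the 14052 genes these shares were 14.1% and 16.8%. The non-overlap count was chosen after seeing the data.

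Pseudogenes were called more often than coding genes, and near-identical copies moved in opposite directions. Of 595 measured pseudogenes 146 were called (24.5%), 80 higher and 66 lower, against 10.1% of 12392 protein-coding genes and 29.2% of 483 long noncoding RNAs. The pseudogene Rps13-ps1 had 0 counts in the DKO-labelled library, 408 CPM in the TKO library, 0.197 CPM in WT TT2 and 637 CPM in WT J1, at least 1730-fold lower against the floor of 3 counts. Eif3j1 and Eif3j2, copies of a translation initiation factor subunit gene, gave a sum of 71.8 CPM in the DKO-labelled library, 68.2 CPM in the TKO library, 56.8 CPM in WT TT2 and 59.3 CPM in WT J1, a mutant ratio of 1.05 (0.965 to 1.15), although Eif3j2 alone was 2.61-fold lower (2.31 to 2.97). Rps3a1, a ribosomal protein gene, was 7.48-fold higher (7.13 to 7.85), while its copy Rps3a3 was 2.13-fold lower (2.06 to 2.20) and lost its call with total counts and in TPM. Rps3a1, Rps3a2 and Rps3a3 together had 1345 CPM in the DKO-labelled library, 1181 CPM in the TKO library, 1077 CPM in WT TT2 and 1998 CPM in WT J1, a mutant ratio of 1.14 (1.12 to 1.16). Rpl34 and Rpl34-ps1 together, with 770, 307, 851 and 553 CPM, still differed 2.51-fold (2.43 to 2.60) between the mutants. Single values of such copies are uncertain, since the expected counts share out reads between them.

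Chromosome medians stood apart on different chromosomes in the mutants and in the wild types. Over genes at 10 CPM or more, chromosome 11 had a median difference of 0.02 for the DKO-labelled library minus the TKO library, but of 0.59 for WT TT2 minus WT J1 and of 0.61 for the TKO library minus WT J1, over 683 genes. Chromosome 1 had -0.07 between the mutants, 0.28 between the wild types and -0.53 for the DKO-labelled library minus WT TT2. Chromosome 8 had the largest median between the mutants, 0.26 over 454 genes, with 76 of its 747 measured genes higher and 24 lower, and 0.13 between the wild types. Without chromosome 8, 846 genes were higher and 742 lower. Chromosome X had -0.19 between the mutants and -0.14 between the wild types. The cause of these shifts was not tested.

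**Figure D5:**
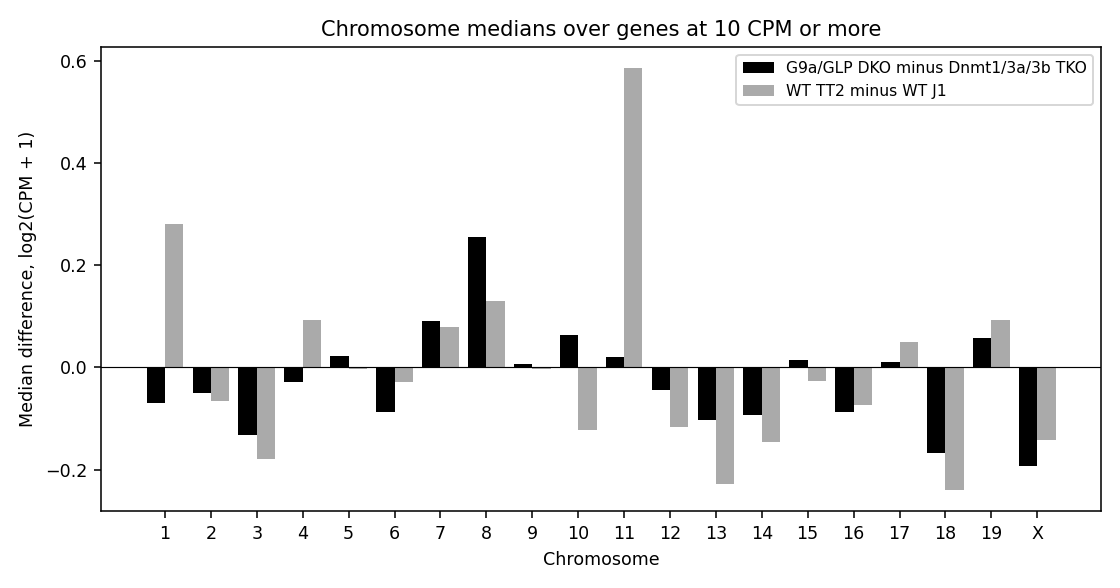
Bars give the median difference in log2(CPM + 1) over genes at 10 CPM or more on each chromosome, for the library labelled G9a/GLP DKO minus Dnmt1/3a/3b TKO in black and WT TT2 minus WT J1 in grey. Chromosome 8 stands out in the first at 0.26 and chromosome 11 in the second at 0.59.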

How the data were processed

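Per the labels' protocols, RNA-seq libraries were made by Smart-seq2. Per the submitters' processing notes, STAR 2.5.3a, RSEM and the builds GRCm38 and mm10 were used; no annotation release or strand setting is given in the sources used here. Of 130 samples, 10 were RNA libraries, and the rest were not analysed here. The deposited expected counts, RSEM's estimates that divide ambiguous reads among genes, were rounded to whole numbers. The deposited posterior standard deviation of each count, a score on the scale of the counts, exceeded 20% of the count in the higher library for 46 of 14052 genes. The deposited TPM, scaled by the authors' RSEM run for length and library total, served as an alternative.

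Counts were divided by effective library sizes from TMM factors over all 10 RNA libraries (edgeR 4.0.16, genes at 1 CPM or more in any library) to give CPM. Differences are in log2(CPM + 1), while a fold is the plain ratio of CPM. The interval of a ratio is the exact 95% conditional binomial (Clopper-Pearson) interval, and that of the ratio of ratios is log-normal. PCR reads without molecular identifiers do not count separate molecules, and intervals and floors therefore cover counting error only. The floor of 3 counts was 0.236 CPM in the DKO-labelled library and 0.164 CPM in the TKO library, where "at least" is used. Tested on simulated counts for 52550 genes with 200 changed by known folds, the size rule called 98.5% of genes changed 3-fold, 100% of genes changed 6-fold, 0% of genes changed 1.5-fold and 0.0222% of 13487 unchanged genes; the simulation held counting error only.

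Genes were named by rule: the 5 targeted genes, the 12 largest calls each way among protein-coding genes at 10 CPM or more with a standard symbol, the 8 each way that differed most beyond the wild types, the 6 each way called alike between the wild types, and up to 4 from each list, fewer where there was no room. Some genes selected by this rule are not reported here. A planned motif found in 1 of 10423 promoters is not shown. Dppa3, Aass, H19, Rian, Ddit3, Nupr1, Nanog, Sox2, Dnmt3l, Uhrf1, Zscan4d, Pramel7, Magea5, Rpl10l, Sycp3, Col1a1, the Xlr3 genes, Eif3j2, Rps3a2, Rps3a3, Rps13-ps1 and the promoters shown were chosen after their values were seen. The comparison, the rules and the 27 gene lists were chosen with earlier results of these data known. A symbol was matched to 99.7% of gene IDs, and RefSeq rows of GRCm38.p6 for 96.3% of the 14052 genes.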

Additional observations from a re-analysis of the deposited data

Results flagged for a closer look

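For 8 of the named genes the 2 mutants went opposite ways from their own wild types, each past the size rule, among 76 such genes of the 14052 (42 higher in the DKO-labelled library and lower in the TKO library, 34 the reverse). With 1 library a group this difference was not tested, and no explanation was tested. The values below are the mutant difference minus the wild-type difference, in log2(CPM + 1). Dnmt3b, a targeted gene, stood at 4.06, with the DKO-labelled library 1.14 above WT TT2 and the TKO library 2.92 below WT J1 (-2.92). Map10 stood at 4.04, Naa11 at 3.71, Lefty2, an inhibitor of Nodal signalling, at 3.15, and Srgn at 2.37. Lefty2 had 52.0 CPM in the DKO-labelled library, 103 CPM in the TKO library, 16.2 CPM in WT TT2 and 299 CPM in WT J1, so the mutants lay between the wild types. Srgn had the same order. Ccnd2 stood at -6.27, Pifo at -4.26 and Gpx6 at -3.91, with the DKO-labelled library below WT TT2 and the TKO library above WT J1 in each.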

How the results depend on the processing

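No paired analysis was possible because each group had 1 library, and for the same reason no library could be left out. Counts are given as higher then lower genes. With a pseudocount of 0.1 CPM, 1486 and 1221 genes were called between the mutants, 382 and 458 of them alike between the wild types, and 557 and 527 beyond the wild types. With a minimum of 10 CPM, the mutants gave 384 and 396, the wild types 864 and 1042, both alike 99 and 154, and beyond the wild types 126 and 142. With a log2 threshold of 2, these were 174 and 105, 201 and 305, 37 and 40, and 52 and 24. With the vehicle control of the inhibitor experiment in place of WT TT2, the wild-type comparison gave 4264 and 4166, the genes lower in both 460, and the genes lower beyond the wild types 177, so those splits depend on which TT2 library is used. The other 50 recomputed counts stayed within 1.5 times, among them those with DESeq2 (1.42.0) size factors, total counts, TMM over 4 libraries, TPM, no minimum, protein-coding genes, and without chromosome 8 or 11, the last 2 chosen after seeing the data. No called named gene changed direction in 1752 recomputed values, of which 102 moved by more than the counting interval. Of 107 named genes called, 13 lost the call in TPM, of which Rps3a3 also did with total counts. The causes were not tested. Depth limits the low genes: against 0 counts a fold is a lower bound, and Ubd, at 1 count in the TKO library, has a wide interval.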

Other observations

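Genes outside the named classes also stood apart, and were picked after their values were seen. CT010467.1, which the gene table gives no type, had 1258 CPM in the DKO-labelled library, 57.6 CPM in the TKO library, 79.6 CPM in WT TT2 and 96.7 CPM in WT J1. AY036118, a long noncoding RNA gene, had 0 counts in the DKO-labelled library, 24.0 CPM in the TKO library, 47.3 CPM in WT TT2 and 62.5 CPM in WT J1. Of 45 measured replication-dependent histone genes, whose transcripts mostly lack a poly(A) tail, 4 were called higher and 6 lower, and the median was -0.28, or 0.17 over the 6 at 10 CPM or more. Hist3h2ba had 0.236, 6.57, 1.06 and 2.62 CPM in the same order, and 15 of 48 histone genes were higher in G9a CM than in Dnmt3a/3b DKO. Of 87 ribosomal protein genes, 6 were called higher and 2 lower, and 6 of these 8 had the direction of the wild types, such as Rplp0 with 4166, 1138, 3067 and 1330 CPM. Of 7 measured mitochondrially encoded genes mt-Co1 was higher, with 14149 CPM in the DKO-labelled library, 6764 CPM in the TKO library, 6376 CPM in WT TT2 and 9802 CPM in WT J1, and mt-Cytb was not called. The shares called were 22.2% of the histone, 9.2% of the ribosomal protein and 14.3% of the mitochondrially encoded genes, beside 12% of all genes.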
